A study of Mus musculus with 18 samples.

Results

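The genes described are Nutm1, the acetyltransferase genes Ep300, Crebbp, Kat2a and Kat2b, the BET reader genes Brd2, Brd3 and Brdt, and Hexim1, which acts downstream of BET proteins. They were chosen by name, as Nutm1 and genes of the acetylation machinery around it, and make up 9 of the 32285 genes in the table. Their RNA was measured in 18 libraries of bone marrow cells from C57BL/6 mice, 3 libraries in each of 6 groups. All cells were CD45.2+ iLS cells sorted by FACS, an abbreviation that the labels leave unexplained. Control cells had the genotype CD45.2(+), BN1 cells carried BRD9-NUTM1 and AFFN1 cells carried AFF1-NUTM1, and each kind was collected on day 6 and on day 14. The descriptions of the day 6 controls call them Mock, and the labels give no animal age, no vector or promoter for the fusions, and no species for their NUTM1 part. Nothing in the labels says that replicates came from separate cultures or animals, so p-values measure only the spread between these libraries, which may be technical. The descriptions follow another naming scheme on each day, so day and experiment cannot be told apart.

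NUTM1 is a protein of the testis that is fused to other proteins in NUT carcinoma and in some leukemias. Its NUT part binds the acetyltransferases p300 (Ep300) and CBP (Crebbp) and raises their activity, which acetylates nearby histones. BET proteins (Brd2, Brd3 and the testis protein Brdt) bind acetylated histones through their bromodomains and recruit the elongation factor P-TEFb. HEXIM1 together with 7SK RNA holds P-TEFb inactive. GCN5 (Kat2a) and PCAF (Kat2b) are alternative catalytic subunits of the acetyltransferase complexes SAGA and ATAC.

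The stretch before the start of transcription is shown for Kat2a and Kat2b, the paralogs that changed in opposite directions between days in control cells, and for Brd2, Brdt and Hexim1, which hold searched motifs. Windows of the 250 bases before each RefSeq start (GRCm38.p6) were searched. The longest part outside annotated exons is shown, 5′ to 3′ along the gene, with searched motifs in capitals.
Kat2a, chr11:100712468-100712717, minus strand: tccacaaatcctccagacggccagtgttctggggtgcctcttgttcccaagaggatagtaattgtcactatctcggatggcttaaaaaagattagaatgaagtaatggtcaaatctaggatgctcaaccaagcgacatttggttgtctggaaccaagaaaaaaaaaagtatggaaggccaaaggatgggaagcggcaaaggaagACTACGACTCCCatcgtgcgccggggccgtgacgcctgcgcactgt
Kat2b, chr17:53566721-53566860, plus strand: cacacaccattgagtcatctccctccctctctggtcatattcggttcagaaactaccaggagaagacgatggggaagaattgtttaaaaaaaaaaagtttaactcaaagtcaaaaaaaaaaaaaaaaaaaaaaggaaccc
Brd2, chr17:34122635-34122857, minus strand: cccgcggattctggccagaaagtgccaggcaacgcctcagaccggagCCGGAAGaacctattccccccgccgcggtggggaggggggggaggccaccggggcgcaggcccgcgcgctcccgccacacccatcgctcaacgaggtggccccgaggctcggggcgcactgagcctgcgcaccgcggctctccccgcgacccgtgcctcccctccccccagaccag
Brdt, chr5:107330944-107331158, plus strand: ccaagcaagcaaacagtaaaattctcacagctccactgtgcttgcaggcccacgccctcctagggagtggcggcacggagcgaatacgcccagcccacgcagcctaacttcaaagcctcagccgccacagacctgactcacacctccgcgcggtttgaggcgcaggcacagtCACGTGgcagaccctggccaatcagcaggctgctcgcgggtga
Hexim1, chr11:103116075-103116230, plus strand: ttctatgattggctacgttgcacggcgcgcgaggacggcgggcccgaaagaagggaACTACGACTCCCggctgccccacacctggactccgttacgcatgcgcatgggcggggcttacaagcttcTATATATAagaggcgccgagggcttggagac
Nutm1 has no entry among these promoters, and Brd2 has 3 starts and Kat2b has 2, of which 1 each is shown. The windows of Ep300 and Crebbp lie wholly within annotated exons and are not shown. Both strands were searched for 6 motifs, and the shares below are over 32851 promoter windows of this length. Distances count to the RefSeq start, which lies past the shown stretch by 94 bases for Hexim1, 35 for Brdt and 27 for Brd2. The shown Kat2b stretch of 140 bases also stops before its start, and a later part of its window outside exons is not shown. The SBS motif of the factor ZNF143 stood 46 bases before the Kat2a start and 194 bases before the Hexim1 start, and 1.03% of promoters held it. Brd2 held the ETS-type motif CCGGAAG (6.91%) 203 bases before the shown start and the NRF1 palindrome (0.782%) 17 bases before it, in the exonic part that is not shown. Brdt held the E-box CACGTG (6.02%) 78 bases before its start, and Hexim1 held 2 overlapping copies of TATATA (5.25%), the first 125 bases before its start. No member held the cAMP response element TGACGTCA (1.55%), and none of the 6 motifs lay in the windows of Ep300, Crebbp, Brd3 or Kat2b. The windows of Crebbp, Brd3 and Ep300 held 44, 37 and 25 CpG dinucleotides and the shown window of Kat2b held 6, which is also the median of all promoters. A match describes letters only and shows no binding.

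Levels are given as CPM, counts scaled to a common library size with TMM factors over all 18 libraries, and total counts ran from 14182539 to 17702578 per library on day 6 and from 17813841 to 18383449 on day 14. A gene was called where edgeR's quasi-likelihood test gave a Benjamini-Hochberg adjusted p under 0.05 over all tested genes, and fold changes are log2 values with their standard error (SE). The leukocyte gene Ptprc, which encodes CD45, read 185 to 407 CPM and 10 B-lineage markers summed to 5576 to 13542 CPM. T and NK markers summed to 6.37 to 53.7 CPM, myeloid markers to 16.6 to 150 CPM, erythroid markers to 1.68 to 38.8 CPM and stromal markers to 13.3 to 142 CPM. In day 6 control replicate 3 and BN1 replicate 3 the median of 10 immediate early and heat shock genes was 53.0 and 80.8 CPM, against 10.7 to 25.4 CPM in the other day 6 libraries. In bulk RNA, fewer cells of a type and less RNA per cell cannot be told apart. The genes Brd9 and Aff1, after which the fusions are named, were not called in any comparison of fusion cells with control cells or with each other.

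Per kb of annotated exon, Brd2 had the highest mean level of the members in each of the 6 groups, from 44.7 ± 1.47 (SD, n = 3) CPM per kb in AFFN1 cells on day 6 to 63.0 ± 3.99 in BN1 cells on day 14. In control cells on day 14 its libraries overlapped those of Kat2a, at 51.0 ± 7.70 and 43.0 ± 12.0 CPM per kb, and in the other 5 groups they lay above all other members. Kat2a and Brd3 followed, and their library ranges overlapped in 6 of 6 groups, so their order is not resolved. In control cells on day 6 they read 30.3 ± 5.19 and 23.9 ± 1.72 CPM per kb. Hexim1 had the next mean in each group, overlapping Brd3 in control cells on day 6, between 18.8 ± 2.80 and 21.4 ± 0.399 CPM per kb. Ep300 and Kat2b read 9.32 ± 0.251 and 9.16 ± 1.33 CPM per kb in control cells on day 6, with overlapping ranges, and 14.0 ± 3.17 and 5.98 ± 0.652 on day 14. Crebbp stood below both on day 6, at 5.67 ± 0.708 CPM per kb in control cells. On day 14 it stood above Kat2b in each of the 3 groups without overlap, at 8.06 ± 0.933 CPM per kb in control cells. Brdt was far below these genes, at 0.0405 to 0.280 CPM per kb as group means, and Nutm1 had the lowest mean, with overlapping libraries in control and AFFN1 cells on day 14. Exons that these cells do not use lower a level per kb, which limits comparisons between genes.

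**Figure D1:**
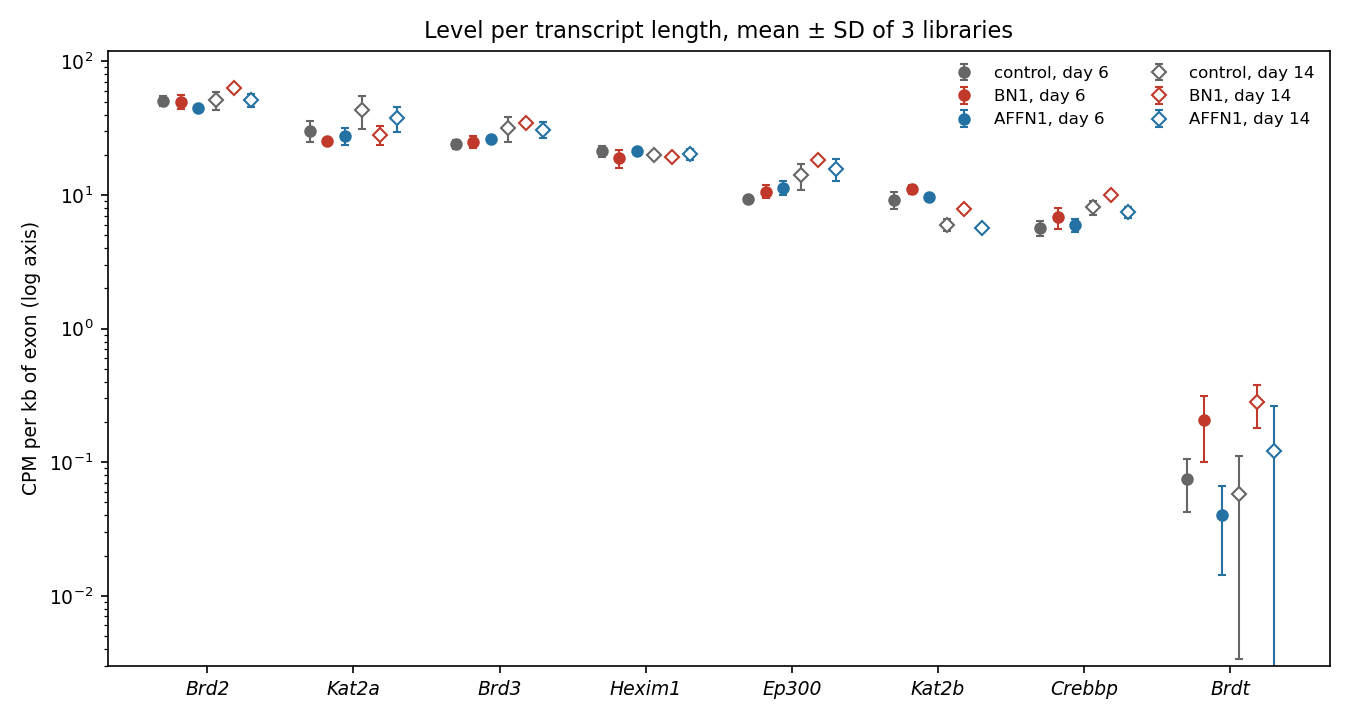
Level of 8 members per kb of annotated exon (vertical axis, CPM per kb, log scale) in the 6 groups; points are means and bars SD of 3 libraries (a bar that reaches the bottom extends to 0 or below). Brd2 lies at the top in each group, Kat2b lies above Crebbp on day 6 and below it on day 14, and Brdt lies far below the rest.

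Nutm1 itself (ENSMUSG00000041358, chr2:112247948-112259291, minus strand, mm10) was at the floor of detection, also in the cells that carry a NUTM1 fusion. It had 2 reads in day 6 control replicate 3, 1 read in day 14 control replicate 2 and 1 read in day 14 control replicate 3. All 12 fusion libraries had 0 reads. A count of 0 in a group of 3 libraries allows up to 3 counts, or 0.0549 CPM in BN1 cells and 0.0553 CPM in AFFN1 cells on day 6, and 0.0613 and 0.0633 CPM on day 14. These limits cover counting error only. Nutm1 failed the filter on low counts and was not tested. The labels do not say whether a fusion transcript would align to the mouse gene, so the mouse Nutm1 count is no check of the fusions.

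Ep300 (ENSMUSG00000055024, chr15:81585351-81652077, plus strand), which encodes p300, was not called in any comparison of fusion cells with control cells, and it was higher on day 14 than on day 6 in control cells. On day 6 it read 137, 129.7 and 133 CPM in control replicates 1 to 3, 168, 134 and 152 CPM in BN1, and 184, 156 and 145 CPM in AFFN1. The AFFN1 libraries all lay above the controls, while 1 BN1 library lay within the control range. The log2 fold change was 0.28 (SE 0.11, adjusted p = 0.123, edgeR) for AFFN1 and 0.17 (SE 0.11, adjusted p = 0.297, edgeR) for BN1. On day 14 it read 179, 252 and 168 CPM in control, 266, 267 and 255 CPM in BN1, and 238, 253 and 176 CPM in AFFN1. The 3 BN1 libraries lay close together and above all controls, and control replicate 2 lay near them. The BN1 to control log2 fold change of 0.38 (SE 0.18) had an adjusted p of 0.278 in edgeR, and 0.0730 with the replicate block, a fit that takes libraries of the same number as a set. For AFFN1 it was 0.14 (SE 0.18, adjusted p = 0.947, edgeR).

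Crebbp (ENSMUSG00000022521, chr16:4081328-4213997, minus strand), which encodes CBP, was highest in BN1 cells on both days without being called. On day 6 it read 75.5, 67.8 and 86.9 CPM in control, 91.7, 75.6 and 109 CPM in BN1, and 88.4, 81.6 and 70.7 CPM in AFFN1. These 3 groups overlapped. On day 14 it read 95.7, 111 and 121 CPM in control, 132, 140.0 and 132 CPM in BN1, and 102, 108 and 90.3 CPM in AFFN1. Here each BN1 library was above all control and AFFN1 libraries. The log2 fold change of BN1 was 0.28 (SE 0.13) against control, with an adjusted p of 0.245, and 0.43 (SE 0.13) against AFFN1, with an adjusted p of 0.482 (edgeR). With the replicate block these adjusted p were 0.144 and 0.151.

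Kat2a (ENSMUSG00000020918, chr11:100704746-100712465, minus strand), which encodes GCN5, had its lowest mean in BN1 cells on both days. Between the groups of a day it was not called in fits without a block that kept all libraries. It was called for BN1 against control on day 14 with the replicate block, and on day 6 without some libraries. On day 14 the levels were 198, 122 and 129 CPM in control, 95.7, 84.1 and 116 CPM in BN1, and 161, 123 and 108 CPM in AFFN1. All BN1 libraries lay below all controls, and control replicate 1 was the highest of the 18. The log2 fold change was -0.62 (SE 0.22, adjusted p = 0.168) in edgeR and -0.59 (SE 0.17, adjusted p = 0.0493) with the replicate block, so Kat2a fell in that fit. Within the numbered sets BN1 minus control was -1.05, -0.54 and -0.16 on the log2 scale. Leaving out set 1, 2 or 3 from the block fit gave adjusted p of 0.245, 0.184 and 0.0385, with log2 fold changes of -0.36, -0.59 and -0.78. For AFFN1 the log2 fold change was -0.21 (SE 0.22, adjusted p = 0.929, edgeR). On day 6 Kat2a read 109, 121 and 85.8 CPM in control, 86.1, 90.3 and 86.4 CPM in BN1, and 89.6, 87.7 and 112 CPM in AFFN1. Control replicate 3 was the lowest of these 9 libraries, and the groups overlapped. The log2 fold change was -0.28 (SE 0.13, adjusted p = 0.170) for BN1 and -0.13 (SE 0.13, adjusted p = 0.541) for AFFN1 by edgeR. Without the 3 day 6 libraries numbered 3, 2 of which had the high immediate early genes, it was -0.39 (adjusted p = 0.00763) for BN1 and -0.38 (adjusted p = 0.00851) for AFFN1, and both were called. Without control replicate 3 alone the BN1 value was -0.39 (adjusted p = 0.0234, edgeR), also a call. Without the libraries numbered 3, 3890 of all 12075 tested genes were called for BN1 and 3873 for AFFN1. Without control replicate 3 alone, 3495 of 12239 were called for BN1.

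Kat2b (ENSMUSG00000000708, chr17:53566861-53672720, plus strand), which encodes PCAF, had a higher mean in BN1 than in control on both days, where its paralog Kat2a had a lower one. Between the groups of a day it was not called with all libraries. It was called for BN1 against control on day 6 without some of them. On day 6 it read 41.7, 40.0 and 52.0 CPM in control, 52.9, 49.8 and 57.8 CPM in BN1, and 45.3, 49.1 and 45.7 CPM in AFFN1. Control replicate 3 lay among the BN1 libraries. The BN1 log2 fold change on day 6 was 0.25 (SE 0.11, adjusted p = 0.132, edgeR), with no call. It was called without the libraries numbered 3 (0.32, adjusted p = 0.0199, edgeR) and without control replicate 3 alone (0.39, adjusted p = 0.0110, edgeR). Of all tested genes, 3890 of 12075 and 3495 of 12239 were called for BN1 in these fits. On day 14 the levels were 26.8, 32.7 and 27.7 CPM in control, 36.0, 41.4 and 37.6 CPM in BN1, and 27.2, 29.0 and 26.2 CPM in AFFN1. The BN1 libraries lay above all control and AFFN1 libraries on day 14. The log2 fold change was 0.38 (SE 0.13) against control, with an adjusted p of 0.151 in edgeR and 0.0562 with the replicate block. Against AFFN1 it was 0.48 (SE 0.13), with adjusted p of 0.378 and 0.102. For AFFN1 against control it was -0.10 (SE 0.13, adjusted p = 0.947, edgeR).

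Brd2 (ENSMUSG00000024335, chr17:34112023-34122634, minus strand), a BET reader present in most tissues, was not called in any of the 9 comparisons. On day 6 it read 386, 369 and 433 CPM in control, 361, 365 and 444 CPM in BN1, and 363, 343 and 343 CPM in AFFN1. All AFFN1 libraries lay below all controls, with a log2 fold change of -0.18 (SE 0.10, adjusted p = 0.255, edgeR), but 1 overlaps the controls when libraries are scaled by total counts alone. The 2 highest values on day 6 came from control replicate 3 and BN1 replicate 3, the libraries with the high immediate early and heat shock genes, and the part of that in the Brd2 level was not tested. On day 14 it read 332, 449 and 417 CPM in control, 491, 526 and 463 CPM in BN1, and 388, 447 and 362 CPM in AFFN1. The BN1 libraries lay above the others, with a log2 fold change of 0.29 (SE 0.15, adjusted p = 0.313; 0.140 with the replicate block) against control. The Brd2 locus overlaps H2-DMa on the opposite strand over 3094 bases, and the strand setting of the counting is not given in the sources used here. H2-DMa itself read 2.16 to 16.4 CPM, low beside Brd2.

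Brd3 (ENSMUSG00000026918, chr2:27445579-27507662, minus strand), another BET reader, differed little between the groups of a day. On day 6 it read 189.8, 166 and 171 CPM in control, 196, 193 and 163 CPM in BN1, and 203, 188 and 183 CPM in AFFN1. On day 14 the levels were 177, 271 and 251 CPM in control, 263, 265 and 232 CPM in BN1, and 223, 259 and 196 CPM in AFFN1. The 3 groups overlapped on both days, and control replicate 1 was the lowest library of day 14. The log2 fold change of BN1 was 0.06 (95% confidence interval -0.15 to 0.27) on day 6 and 0.10 (-0.29 to 0.50) on day 14. Those of AFFN1 were 0.12 (-0.09 to 0.33) and -0.06 (-0.45 to 0.33).

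Brdt (ENSMUSG00000029279, chr5:107331159-107387058, plus strand), the BET reader of male germ cells, was detected at a trace level, with its highest means in BN1 cells. On both days it entered the tests only because all 3 BN1 libraries lay over the minimum of the filter on low counts, so its tests describe these libraries and support no difference. On day 6 the read counts were 8, 3 and 10 in control, 33, 13 and 13 in BN1, and 5, 1 and 5 in AFFN1. On day 14 they were 0, 9 and 5 in control, 14, 28 and 28 in BN1, and 0, 7 and 21 in AFFN1. All BN1 libraries lay above all controls on both days. On the CPM scale the means were 0.380 ± 0.165 (SD, n = 3) in control, 1.06 ± 0.543 in BN1 and 0.207 ± 0.134 in AFFN1 on day 6, and 0.293 ± 0.276, 1.43 ± 0.505 and 0.621 ± 0.734 on day 14. Against AFFN1 on day 6 the log2 fold change was 2.34 (SE 0.61, adjusted p = 0.0330, edgeR; 0.0262 with the replicate block). It did not pass without BN1 replicate 1 (0.127), without AFFN1 replicate 1, 2 or 3 (0.0768, 0.123 and 0.0692), or in a fit of all 18 libraries (0.225). Against control it was 1.43 (SE 0.55, adjusted p = 0.102) on day 6 and 2.25 (SE 1.14, adjusted p = 0.302; 0.0776 with the replicate block) on day 14 by edgeR. On day 6 no control or AFFN1 library lay over that minimum of 0.631 CPM, and on day 14 1 AFFN1 library did (0.551 CPM). Of 14 other germ cell genes, 7 had 0 reads in all 18 libraries, and the list summed to 0.514 to 3.00 CPM in control, 2.75 to 3.84 in BN1 and 2.89 to 4.32 in AFFN1 on day 6. On day 14 the sums were 0.363 to 0.663, 1.09 to 1.67 and 0.553 to 1.43 CPM. The part of other germ cell transcripts in the Brdt difference was not tested.

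Hexim1 (ENSMUSG00000048878, chr11:103116231-103119725, plus strand), the P-TEFb inhibitor whose RNA is used as a marker of BET inhibition, was the steadiest member on day 14. It read 69.5, 70.3 and 68.2 CPM in control, 67.0, 68.1 and 67.2 CPM in BN1, and 64.0, 69.8 and 77.8 CPM in AFFN1. The BN1 libraries lay below the controls by a margin smaller than 1 CPM, which disappeared when libraries were scaled by total counts. The log2 fold changes were -0.06 (95% confidence interval -0.30 to 0.18) for BN1 and 0.01 (-0.23 to 0.25) for AFFN1. On day 6 it read 66.9, 79.3 and 77.0 CPM in control, 58.1, 62.6 and 76.8 CPM in BN1, and 75.1, 76.2 and 73.4 CPM in AFFN1. The groups overlapped on day 6, with log2 fold changes of -0.19 (-0.43 to 0.05) for BN1 and 0.00 (-0.24 to 0.25) for AFFN1.

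**Figure D2:**
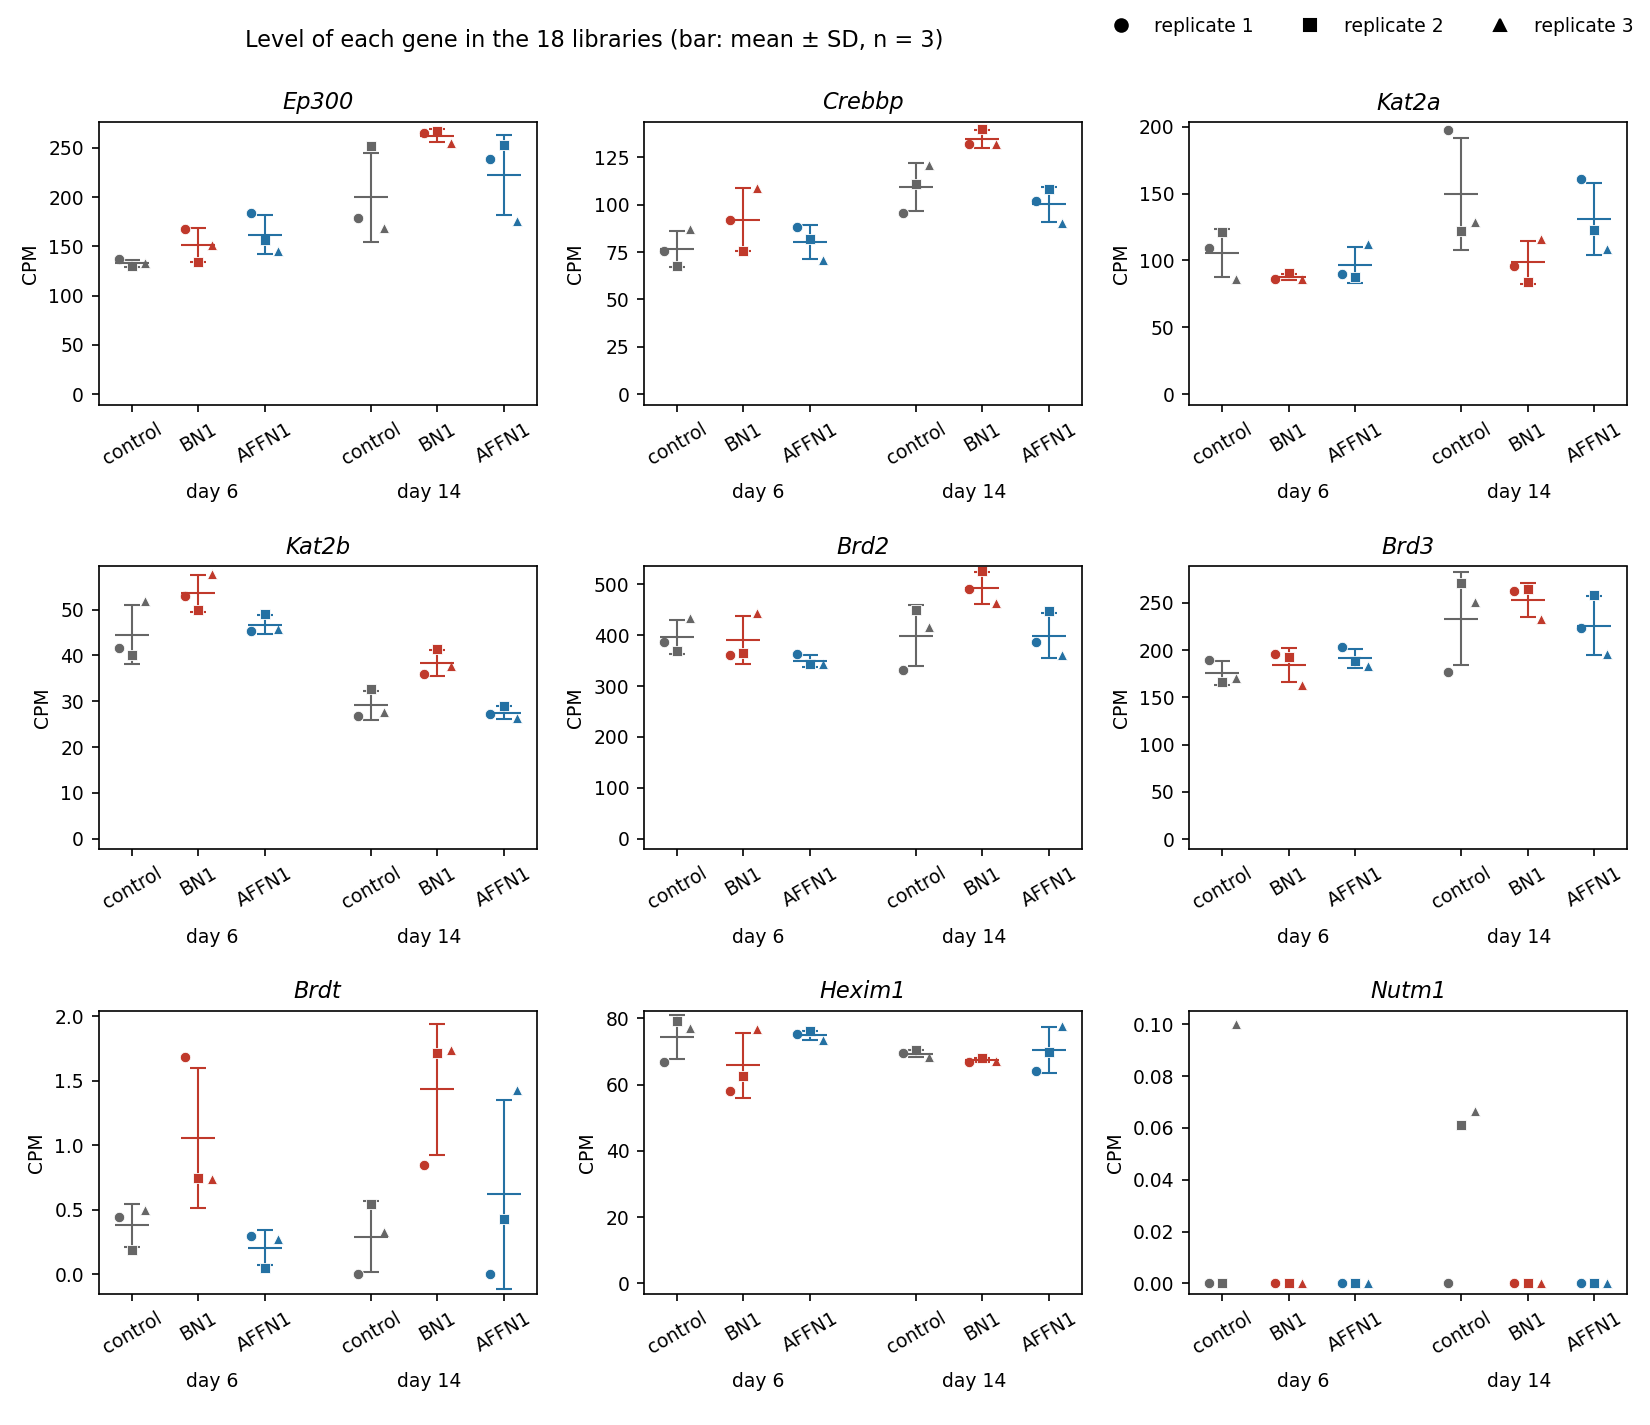
Level of each of the 9 genes (vertical axis, CPM, from 0) in the 18 libraries by group and day; points are libraries, marked by replicate number, and bars are mean ± SD of 3 libraries (none for Nutm1, which had 4 reads in all). On day 14 the red BN1 points lie above the grey control points for Ep300, Crebbp, Kat2b, Brd2 and Brdt and below them for Kat2a.

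Counted over the members, 0 of 8 tested genes were called for BN1 against control on day 6, where 17.4% of all tested genes were called, and 0 of 8 for AFFN1, where 12.7% were. At an unadjusted p under 0.05, 2 members passed for BN1 (Brdt and Kat2b) and 1 for AFFN1 (Ep300), and DESeq2 called 0 members in both. Of all 12068 tested genes, 3951 passed that threshold for BN1 and 3414 for AFFN1. Brdt is no support here, as it passed the filter through its high BN1 libraries. For BN1 against AFFN1 on day 6 the 1 call was Brdt, which was tested only through its high BN1 libraries, so 0 of the other 7 members were called. Of all genes 11.2% were. On day 14 edgeR called 0 of 8 members for BN1 against control, and 0.0257% of all genes (3 of 11657). With the replicate block it called 1, Kat2a, and 11.6% of all genes (1348). Unadjusted, 3 members passed (Crebbp, Kat2a and Kat2b), as did 2351 of all 11657 tested genes, and DESeq2 called 0 members. For AFFN1 against control on day 14 no member passed in edgeR, DESeq2 or the block fit. Of all genes edgeR called 0.0429%, or 0.558% with the block. At an unadjusted p under 0.05 no member passed, while 721 of all 11657 genes did. For BN1 against AFFN1 on day 14 no member passed in any of these fits, and 2 (Crebbp and Kat2b) had an unadjusted p under 0.05. Of all genes 0% were called (992 had an unadjusted p under 0.05, and DESeq2 called 90), or 0.18% with the block.

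The groups separated on day 14 more often than they were called. In BN1 against control 7 of the 8 tested members had groups that did not overlap, all but Brd3, where 28.1% of all tested genes did not overlap. The number was 6 when libraries were scaled by total counts, without Hexim1. Of the 7, Ep300, Crebbp, Kat2b, Brd2 and Brdt were higher and Kat2a and Hexim1 lower in BN1. Brdt passed the filter through its high BN1 libraries, so its separation is no support. In BN1 against AFFN1 on day 14 the number was 4 (Ep300, Crebbp, Brd2 and Kat2b), against 16.8% of all genes. In AFFN1 against control on day 14 it was 0, against 9.32% of all genes. These BN1 comparisons share the BN1 libraries. B-lineage markers summed to 9944 to 11984 CPM in BN1 on day 14, to 6666 to 9836 CPM in control and to 7403 to 13542 CPM in AFFN1. Other lists separated BN1 from control on day 14 as well. T and NK markers summed to 13.0 to 19.3 CPM in BN1 and 6.37 to 7.86 in control, and myeloid markers to 39.2 to 67.9 and 16.6 to 36.6 CPM. Of the 8 genes in each of these 2 lists only 2 passed the filter on low counts, so both sums rest on few genes. The immediate early and heat shock genes summed to 349 to 401 CPM in BN1 and 226 to 290.1 CPM in control. The part of these lists in the separations was not tested. On day 6 the number was 1 for BN1 against control (Brdt), 2 for AFFN1 against control (Ep300 and Brd2) and 2 for BN1 against AFFN1 (Brdt and Kat2b). Brdt is again no support here. The shares of all genes were 33.6%, 32.3% and 35%.

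**Figure D3:**
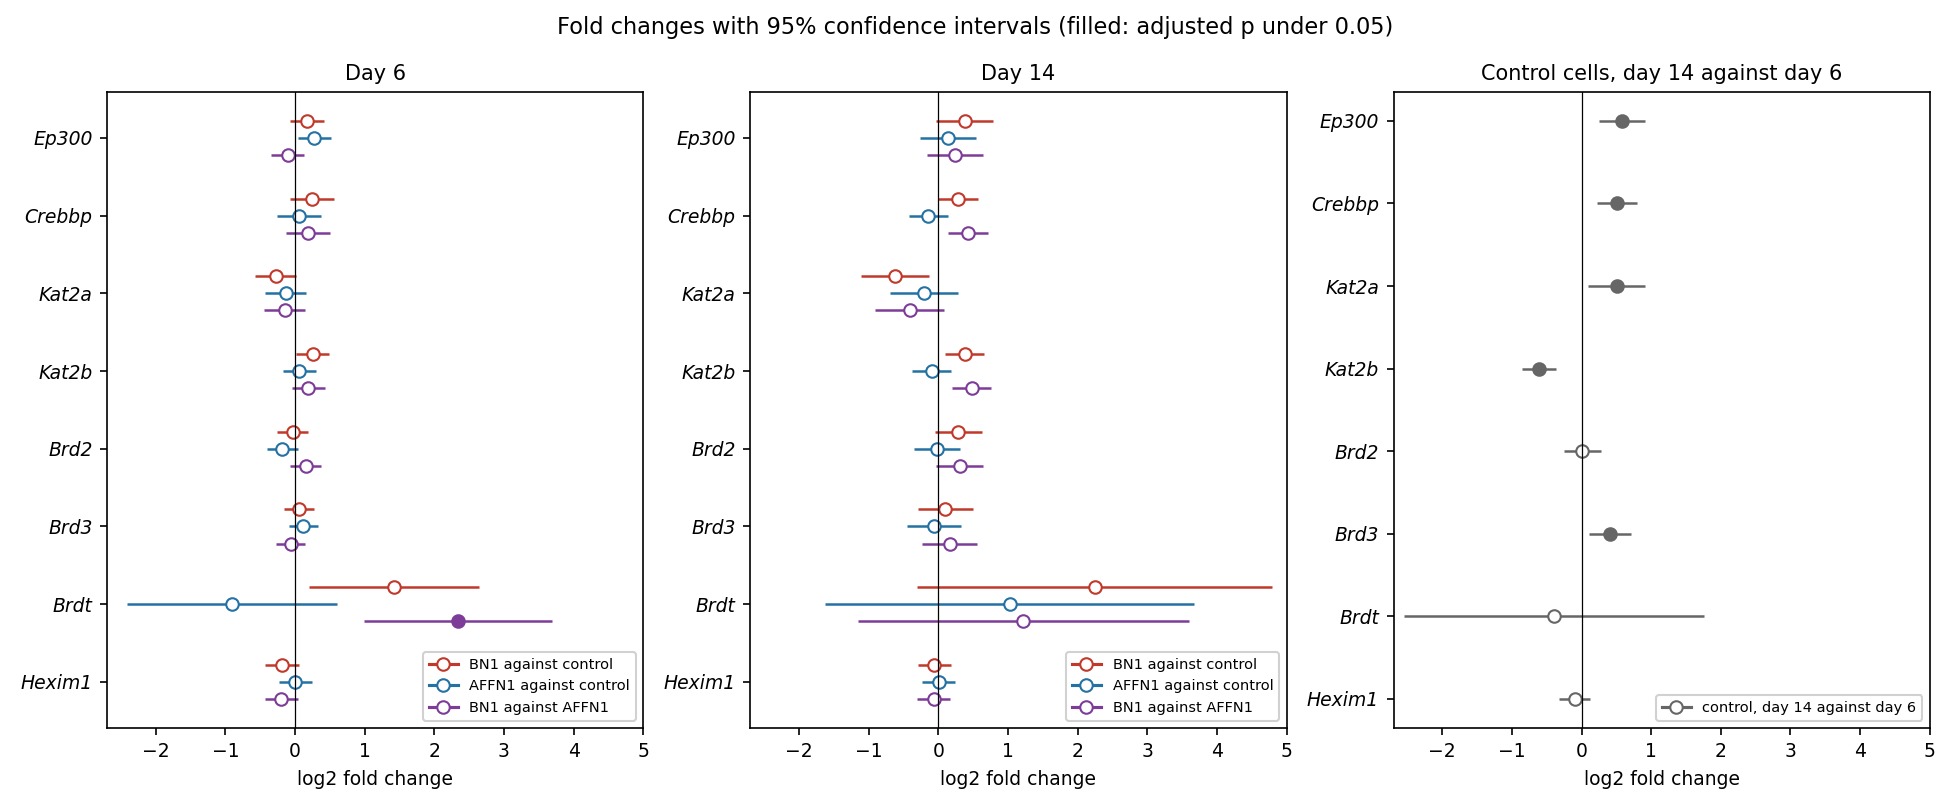
Log2 fold changes (horizontal axis) of 8 members with 95% confidence intervals from the edgeR fits without a block; filled points have an adjusted p under 0.05. Among the comparisons within a day only Brdt for BN1 against AFFN1 on day 6 is filled, a gene tested only through its high BN1 libraries, and in control cells between days Ep300, Crebbp, Kat2a, Kat2b and Brd3 are filled.

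Within the numbered sets of day 14 the descriptions share a code, and BN1 minus control was positive in 3 of 3 sets for Ep300 (0.57, 0.09 and 0.60), Crebbp (0.46, 0.33 and 0.13), Brd2 (0.56, 0.23 and 0.15) and Kat2b (0.42, 0.34 and 0.44) on the log2 CPM scale. It was negative in 3 of 3 for Kat2a and for Hexim1 (-0.05, -0.05 and -0.02). The groups of these genes did not overlap, so any pairing of libraries gives the same signs. The signs therefore add nothing to the separation above. Of Ep300, Crebbp, Brd2, Kat2b and Kat2a, Kat2b differed least between sets. Brd3 was higher in set 1 only, at 0.57, -0.04 and -0.11. AFFN1 minus control was positive in 3 of 3 sets for Ep300 (0.41, 0.0073 and 0.065), with the value of set 2 near 0. It had mixed signs for Crebbp (0.09, -0.04 and -0.42), Kat2b (0.02, -0.17 and -0.08) and Brd2 (0.22, -0.00 and -0.20). Whether a fusion's effect differed between days was tested as an interaction over all 18 libraries. No member passed for BN1 (2.97% of all genes did) or for AFFN1 (1.46%), in edgeR, DESeq2 or with the replicate block, nor at an unadjusted p under 0.05. Of all 12567 genes, 1635 had an unadjusted p under 0.05 for BN1 and 1220 for AFFN1. For BN1 the interaction was 0.33 (95% confidence interval -0.05 to 0.70) for Brd2, -0.33 (-0.91 to 0.24) for Kat2a and 0.13 (-0.21 to 0.47) for Kat2b.

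**Figure D4:**
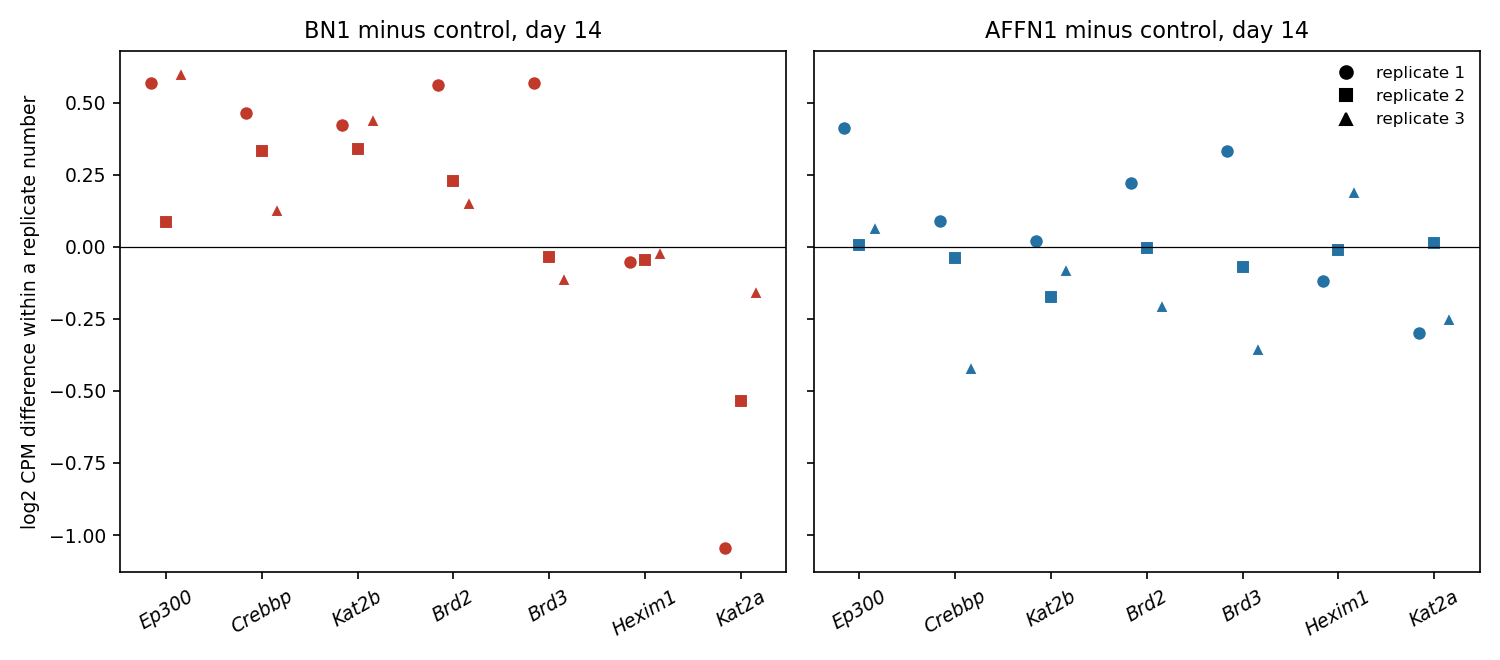
Difference in log2 CPM between fusion and control libraries of the same replicate number on day 14 (vertical axis) for 7 members; left panel BN1, right panel AFFN1, 1 point for each of 3 numbers. In BN1 the points of Ep300, Crebbp, Kat2b and Brd2 lie above 0, those of Kat2a below 0 and those of Hexim1 just below 0. In AFFN1 the points of most genes lie on both sides of 0.

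In control cells 5 of the 8 tested members differed between the days, in a comparison in which 43.9% of all genes were called. Ep300 rose by a log2 fold change of 0.59 (SE 0.16, adjusted p = 0.00621), Crebbp by 0.51 (SE 0.14, adjusted p = 0.00695), Kat2a by 0.50 (SE 0.19, adjusted p = 0.0432) and Brd3 by 0.41 (SE 0.14, adjusted p = 0.0287) by edgeR. Kat2b fell, with a log2 fold change of -0.62 (SE 0.11, adjusted p = 0.000457, edgeR). These values depend on the scaling between days. The TMM factors were 1.10 to 1.13 in the control libraries of day 6 and 0.840 to 0.904 in those of day 14. Scaling by total counts alone would give smaller rises and a larger fall, and its values between days are not given here. The Kat2b mean went from 44.6 ± 6.46 to 29.1 ± 3.17 CPM (SD, n = 3), while the Kat2a mean went from 105 ± 18.1 to 149.6 ± 41.9 CPM. Ep300, Crebbp, Kat2a and Kat2b had days that did not overlap, as did 51.1% of all genes. Brd2 had a log2 fold change of 0.01 (95% confidence interval -0.25 to 0.28) and Hexim1 of -0.10 (-0.32 to 0.12). The calls of Ep300, Crebbp and Kat2b held when any 1 control library was left out, with adjusted p of at most 0.0448, 0.0375 and 0.0172 over all alternatives. The Brd3 call was lost without day 6 control replicate 2 or 3 or day 14 control replicate 2 or 3 (adjusted p 0.0889, 0.0762, 0.141 and 0.0942). The Kat2a call was lost without day 6 control replicate 1 or 3 or day 14 control replicate 1 (0.0775, 0.171 and 0.276). Both were lost in a fit of the 6 control libraries alone (0.105 for Brd3 and 0.101 for Kat2a). Other cells' markers moved with the days as well. In control cells T and NK markers summed to 17.3 to 41.3 CPM on day 6 and 6.37 to 7.86 CPM on day 14, myeloid markers to 57.0 to 149.7 and 16.6 to 36.6 CPM, and erythroid markers to 1.68 to 1.99 and 6.83 to 36.0 CPM. Each of these lists has 8 genes, of which 2 T and NK, 3 myeloid and 3 erythroid genes passed the filter on low counts. The sums therefore rest on few genes, and the part of these markers was not tested. Of the 10 B-lineage markers 5 were called, 4 higher and 1 lower on day 14, a share of 50% beside 43.9% of all genes. Their median log2 fold change was 0.30. Cd79a rose by a log2 fold change of 1.63 and the recombinase gene Rag1 fell by 1.52.

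The partners of these proteins were followed in lists, also chosen with earlier results of these data known. In the P-TEFb and 7SK list, 0 of 6 genes were called for BN1 and 1 for AFFN1 on day 6, Larp7, a 7SK-binding protein, which fell by 0.34 on the log2 scale (adjusted p = 0.0127, edgeR). These were shares of 0% and 16.7%, beside 17.4% and 12.7% of all genes. Between days in control cells 3 rose and 1 fell, 66.7% of the list beside 43.9% of all genes. The 7SK capping enzyme gene Mepce rose by 0.85 and Larp7 by 0.42, while Ccnt2, a cyclin of P-TEFb, fell by 0.87 on the log2 scale. Among 22 SAGA and ATAC subunits, 1 was called for BN1 on day 6 (Supt20, 0.32) and 2 for AFFN1 (Taf5l, -0.45, and Eny2, -0.39). Between days 7 rose, led by Taf9 (2.46), Taf10 (1.29) and Sgf29 (0.89), and 3 fell, a share of 45.5% near the 43.9% of all genes. On day 6 the shares of 4.55% for BN1 and 9.09% for AFFN1 lay below the 17.4% and 12.7% of all genes. Taf9 lies within Ak6 on the same strand, so the counting could split their reads and its value is uncertain. Of 13 other lysine acetyltransferases, BN1 had 2 higher on day 6, the steroid receptor coactivator genes Ncoa1 (0.64) and Ncoa2 (0.40), and AFFN1 had 1, Ncoa3 (0.38), shares of 15.4% and 7.69%. Between days 4 of these rose, with Naa60 (1.02) changing most, and 2 fell, Clock (-0.80) and Hat1 (-0.57), together 46.2%.

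Of 31 other bromodomain genes, 7 were higher in BN1 than in control on day 6 and 0 lower, a share of 22.6% beside 17.4% of all genes. They were the nuclear body genes Sp100 (log2 fold change 0.85) and Sp110 (0.61), the WD-repeat genes Phip (0.68) and Brwd1 (0.53), the chromatin remodeler genes Bptf (0.38) and Baz2b (0.47), and the methyltransferase gene Ash1l (0.49). In AFFN1 Sp100 (1.10) and Sp110 (0.61) were higher, 6.45% of the list beside 12.7% of all genes. Between days in control cells 0 of the 31 rose and 10 fell, with Brwd1 (-1.36), Brwd3 (-0.93) and the replication-linked gene Atad2 (-0.77) changing most, or 32.3% of the list beside 43.9% of all genes. The median log2 fold change of the list was 0.15 for BN1 on day 6, against -0.02 over all genes, and -0.11 between days, against -0.03. Of 17 tested histone deacetylases and sirtuins, 3 were higher in BN1 on day 6, Hdac9 (1.37), Hdac5 (0.80) and Sirt1 (0.33), and Hdac1 (-0.28) was lower, together 23.5%. In AFFN1 Hdac7 (0.50) was higher, 5.88% of the list. Between days in control cells 4 of 18 rose, among them Sirt2 (0.85), and 3 fell, among them the mitochondrial sirtuins Sirt3 (-1.35) and Sirt5 (-0.94). Together these were 38.9% of the list beside 43.9% of all genes. Hdac1 was also lower in BN1 than in AFFN1 on day 6 (-0.47, adjusted p = 0.00469, edgeR). On day 14 edgeR called 0 genes of these 5 lists for a fusion against control or between fusions. Of all genes it called 0.0257% for BN1, 0.0429% for AFFN1 and 0% between fusions. With the replicate block 11.6% of all genes were called for BN1 against control on day 14. Higher in that fit were 4 of 31 other bromodomain genes, 3 of 13 other acetyltransferases and 2 of 17 deacetylases. Of 22 SAGA or ATAC subunits 1 was lower.

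Among transcription factors and cofactors that bind p300 or CBP, the CREB coactivator gene Crtc1 fell on day 6 in BN1 (-0.69) and AFFN1 (-0.71), and Smad3, a TGF-beta signal transducer gene, rose in both (0.45 and 0.76), as log2 fold changes. The CREB-family gene Atf1 also fell in both, by 0.28 and 0.34. These were 3 and 3 of the 12 tested genes of that list, and Crtc3 (0.32) was called in AFFN1 as well. The shares called were 25% for BN1 and 33.3% for AFFN1, beside 17.4% and 12.7% of all genes. Both contrasts share the control libraries. Myb, a hematopoietic factor that binds the KIX domain of p300 and CBP, was higher in BN1 than in AFFN1 on day 6 (0.68, adjusted p = 0.0155, edgeR), at 1131 and 704 CPM. Between days 5 genes of the list rose and 0 fell, a share of 41.7% near the 43.9% of all genes. Cited2 (1.38), a CBP-binding protein gene, and the NF-kappaB gene Rela (1.05) changed most. Of 4 tested genes of the NUT carcinoma complex, Zfp592 was higher in BN1 on day 6 (0.32, adjusted p = 0.0271, edgeR). This was 25% of the list beside 17.4% of all genes. Brd9 itself had log2 fold changes between -0.11 and 0.13 for a fusion against control, and Aff1 between -0.05 and 0.35. Aff1 in BN1 was 0.31 (adjusted p = 0.0690) on day 6 and 0.35 (0.193; 0.0682 with the replicate block) on day 14 by edgeR.

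Across the 18 libraries, after subtracting each day's mean of log2 CPM, Crebbp and Kat2b had the highest correlation of any pair of members (Pearson r = 0.851). Kat2b also followed Brd2 (0.755), and Crebbp followed Brd2 (0.772). Kat2a ran against Kat2b (-0.742), Brdt (-0.760) and Brd2 (-0.682). Brdt passed the filter on low counts through its high BN1 libraries, so its correlations are no support. Hexim1 followed no other member, with r from -0.384 to 0.0265. Of all genes compared, those most like Ep300 were Arid1a (0.947), a subunit of the BAF remodeling complex, and Ptprc (0.925). The nearest to Crebbp were Kbtbd2 (0.897) and Tut7 (0.882), and to Kat2b Kbtbd2 (0.912) and Rictor (0.912). Brd2 was nearest to the acetyltransferase gene Kat6b (0.936) and Trak1 (0.931), and Brd3 to Arhgef18 (0.934) and Wdr90 (0.902). Kat2a was nearest to Txndc5 (0.963), a protein folding gene, and Utp4 (0.963), a ribosome assembly gene. Hexim1 had lower values, with Myl12a (0.750) and Lamtor5 (0.741), and Brdt was nearest to Carns1 (0.906) and A630023P12Rik (0.903). These are descriptions over 18 libraries that share group, replicate set and composition, and they carry no test.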

How the data were processed

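RNA was measured by poly(A) RNA-seq (TruSeq Stranded mRNA) in 18 libraries. The deposited table holds expected counts per gene from RSEM after STAR alignment to mm10, per the submitters' processing notes, which also name DESeq2. Versions, annotation and strand setting: not given in the sources used here. Of 32285 gene IDs, 32158 (99.6%) were found in GENCODE M21, which gave positions and exon lengths. Expected counts were rounded. The main test was edgeR 4.0.16 (R 4.3.3) with filterByExpr, TMM and the robust quasi-likelihood F-test, fitted per day, or over 18 libraries for days and interactions, with a Benjamini-Hochberg threshold of 0.05. The procedure was tested on simulated data. Alternatives were DESeq2 1.42.0, other scaling, no filter, other sample sets and left-out libraries. Pairing was checked by correlating deviations from group means. On day 14 the labels share a code within each number and the 9 same-number correlations were 0.291 to 0.614, against -0.503 to 0.0141 for the 18 others, so the replicate block is given. On day 6 they were -0.321 to 0.351 against -0.360 to 0.395. All members are described. From each list at most 3 genes were named per comparison, those with the largest change among the called at 5 CPM or more. Baz2b, Bptf, Ash1l, Brwd1 and Hdac1 (BN1, day 6) and Crtc3 (AFFN1, day 6) were named after their values were seen. The 2 genes most like each member were named by Pearson's r. The members and lists were chosen with earlier results of these data known.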

Additional observations from a re-analysis of the deposited data

How the results depend on the processing

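Under the alternatives run, 930 single-member fold changes kept direction and side of the threshold, 14 lost a call, 7 gained one and 56 changed sign. Without the day 6 libraries numbered 3, 2 of 8 members were called for BN1 against control and 1 of 8 for AFFN1. Of all 12075 tested genes, 3890 and 3873 were called in these comparisons. A fit on 18 libraries called 0 members for BN1 against AFFN1, and a fit on the 6 control libraries called 3 between days. The replicate block called 1 member for BN1 on day 14, and 1 without the set numbered 3; it changed no other member call. The block without a set was chosen after seeing the data. Leaving out single libraries gave 0 to 2 members for BN1 on day 6, 0 to 1 for BN1 against AFFN1 on day 6, and 3 to 4 between days.

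Signs that changed with whole sets left out were Crebbp for BN1 against AFFN1 on day 6 without set 3 (-0.023), and Brd3 for BN1 on day 14 without set 1 (-0.092, or -0.096 with the block). With the block and without set 3, AFFN1 on day 14 gave Crebbp 0.030, Brd2 0.11, Brd3 0.13, Brdt -0.31 and Hexim1 -0.060, and BN1 against AFFN1 gave Hexim1 0.020. Interactions without day 6 set 3 and day 14 set 1 were Brd3 -0.20 and Kat2a 0.060 for BN1, and Brd2 -0.013 and Kat2a 0.25 for AFFN1. With single libraries left out, log2 fold changes ran as follows. On day 6, BN1 gave Brd2 -0.14 to 0.053, AFFN1 gave Crebbp -0.016 to 0.17, Kat2b -0.0032 to 0.20 and Hexim1 -0.062 to 0.061, and BN1 against AFFN1 gave Ep300 -0.19 to 0.0021 and Brd3 -0.11 to 0.019. On day 14, BN1 gave Brd3 -0.044 to 0.24, BN1 against AFFN1 gave Hexim1 -0.13 to 0.019, and AFFN1 gave Brd2 -0.12 to 0.085, Brd3 -0.21 to 0.072, Brdt -0.44 to 1.87, Kat2a -0.39 to 0.058, Kat2b -0.14 to 0.0054 and Hexim1 -0.057 to 0.069. Between days, Brd2 ran from -0.079 to 0.13 and Brdt from -1.23 to 0.19. Interactions ran from -0.082 to 0.18 for Crebbp and -0.11 to 0.17 for Brd3 (BN1), and from -0.24 to 0.074 for Ep300, -0.24 to 0.19 for Kat2a and -0.061 to 0.086 for Hexim1 (AFFN1). The cause was not tested.

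Counts over all genes moved too, also with single libraries left out: on day 6 from 1141 (without BN1 replicate 1) to 3495 (without control replicate 3) for BN1 (1246 and 1360 without control replicate 1 and 2), 739 to 2250 for AFFN1 (739 and 747 without AFFN1 replicate 1 and 2) and 725 to 1047 for BN1 against AFFN1 (787 and 725 without these), on day 14 from 1 to 5 for BN1 and 0 to 9 for AFFN1, and from 110 to 214 for the AFFN1 interaction. BN1 on day 6 had 2095 calls, 1032 in the 18-library fit and 3890 without set 3; AFFN1 had 1528, 676 and 3873; BN1 against AFFN1 had 1349 and 624. BN1 on day 14 had 3 calls, 5 with RLE scaling, 17 without the filter, 641 by DESeq2, 691 over 18 libraries, 18 without set 1, 1348 with the block, and 594, 143 and 684 with the block without set 1, 2 and 3. AFFN1 on day 14 had 5, then 25 without the filter, 83 by DESeq2, 51 over 18 libraries, 11 without set 1, 65 with the block, and 263, 25 and 1 without a set. BN1 against AFFN1 had 0, then 5 without the filter, 90 by DESeq2, 76 over 18 libraries, 21 with the block, and 124 and 5 without set 1 and 2. The BN1 interaction had 373, 598 by DESeq2 and 649 with the block; the AFFN1 one 183, 339 and 319.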
